A study of Homo sapiens with 6 samples.

Results

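Expression of 8 genes of the PI3K and AKT pathway was examined in xenograft tumours: the PI3K catalytic subunit genes PIK3CA and PIK3CB, the regulatory subunit gene PIK3R1, the AKT isoform genes AKT1 and AKT2, the AKT phosphatase genes PHLPP1 and PHLPP2, and the phosphoinositide phosphatase gene INPP4B. These 8 are among 24494 gene symbols on the arrays, and each is read by 1 feature whose deposited symbol equals the gene's name. PHLPP2 entered this set because its value was higher in every SHP2 shRNA tumour, so its values in that contrast are a description and carry no test. The tumours were grown subcutaneously for about 6 weeks in NSG mice, which lack mature lymphocytes and natural killer cells, from 1205Lu, a human metastatic melanoma cell line. All tumours came from that 1 line and carried a short hairpin RNA, either a non-target hairpin (control, 3 tumours) or a hairpin against Shp2 (SHP2 shRNA, 3 tumours). Whether the tumours of a group grew in different mice is not given in the labels; p-values therefore cover the spread among these tumours alone, and the number of arrays limits the precision.

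Class I PI3K enzymes pair a catalytic subunit with a regulatory subunit that docks on activated receptors and adaptors, and they make the lipid that draws AKT to the plasma membrane. There PDK1 and mTORC2 phosphorylate AKT, PHLPP phosphatases remove the mTORC2 phosphate, and lipid phosphatases such as INPP4B remove the lipid signals. SHP2, the tyrosine phosphatase encoded by PTPN11, acts on receptor and adaptor complexes that also recruit PI3K, and PI3K and AKT signalling is often active in melanoma.

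Values are GCRMA values read as log2, and a difference is SHP2 shRNA minus control. Detection was judged against 3575 negative control features, and the level that 95% of them did not reach (the control percentile) was 5.90, 5.43 and 5.12 for the controls and 5.43, 5.18 and 5.09 for the SHP2 shRNA tumours, each in the order of tumours 1 to 3. The targeted transcript PTPN11 fell by 2.05 (limma, Benjamini-Hochberg adjusted p = 0.034), and it was the only one of 12541 genes tested past an adjusted p of 0.05 (0.00797%). Its adjusted p ranged from 0.0013 to 0.27 over 19 alternative settings and missed the threshold in 8, while the difference lay between -2.30 and -1.86 in all 19. Of the melanocyte lineage markers, S100B exceeded the control percentile in all 6 arrays and SOX10 in 3, whereas MITF, PMEL, MLANA, TYR, DCT and TYRP1 did so in 0. Of 5 markers of dedifferentiated melanoma, 4 (AXL, EGFR, VIM and NT5E) exceeded it in all 6. The leukocyte marker PTPRC was at most 1.35 in any array, and no endothelial, adipocyte or keratinocyte marker in the table exceeded the control percentile in any array. CD68 (leukocyte list) and PDGFRB and COL1A1 (fibroblast list) exceeded it in all 6. In bulk tumours fewer cells of a type and less RNA per cell cannot be told apart. The tumour line was human and the host mouse, so a marker's value does not show which cells it came from. Whether host RNA added to any value was not tested.

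The letters just upstream of the 2 PHLPP genes are shown because these paralogs encode phosphatases of the same AKT site and 1 of them was chosen for its pattern. The 250 bases before each RefSeq start (GRCh38.p14) span chr18:62715291-62715540 (plus strand) for PHLPP1 and chr16:71724702-71724951 (minus strand) for PHLPP2. They are printed 5′ to 3′ on the gene's strand with motif matches in capitals.
PHLPP1: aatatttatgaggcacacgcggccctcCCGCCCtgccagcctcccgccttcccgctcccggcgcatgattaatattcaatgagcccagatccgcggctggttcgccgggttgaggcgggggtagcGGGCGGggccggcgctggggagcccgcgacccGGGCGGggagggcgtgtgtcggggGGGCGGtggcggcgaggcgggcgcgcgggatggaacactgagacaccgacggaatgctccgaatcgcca
PHLPP2: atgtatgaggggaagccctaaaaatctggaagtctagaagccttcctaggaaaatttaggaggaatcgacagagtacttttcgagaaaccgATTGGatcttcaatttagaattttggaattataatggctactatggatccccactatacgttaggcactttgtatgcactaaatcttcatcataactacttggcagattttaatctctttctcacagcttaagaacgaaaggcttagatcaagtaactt
Both strands were searched for the GC box (GGGCGG), the CCAAT box, the ETS family letters CCGGAAG, the AP-1 letters TGANTCA, the FOXO family letters GTAAACA and the cyclic AMP response element with the letters TGACGTCA. The PHLPP1 stretch held 4 GC boxes and the PHLPP2 stretch 0, and the PHLPP2 stretch held 1 CCAAT match on the opposite strand and the PHLPP1 stretch 0. No match overlapped another, and no match to the other 4 motifs was found in either stretch. Among 35097 promoters cut to the same length, 42.6% held a GC box, 32.0% CCAAT, 8.52% the ETS letters, 6.57% the AP-1 letters, 2.98% the FOXO letters and 1.65% the cyclic AMP response element. The G and C content was 71.2% for PHLPP1 and 37.2% for PHLPP2. These are matches of letters only, and for each of the 2 genes only the first start listed was used.

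PIK3CA, which encodes the p110-alpha catalytic subunit, was 7.04, 7.05 and 7.14 in the controls and 6.98, 7.39 and 7.03 in the SHP2 shRNA tumours, again in the order of tumours 1 to 3, as for each gene that follows. It exceeded the control percentile in all 6 arrays, and the groups overlapped, with SHP2 shRNA tumour 2 highest. The mean was 7.08 ± 0.05 (SD, n = 3) in control and 7.14 ± 0.23 in SHP2 shRNA tumours, a difference of 0.06 (95% interval -0.31 to 0.43). Without SHP2 shRNA tumour 2 the difference was -0.07. The feature's transcript lies on chr3:178866311-178957881 (GRCh37, plus strand).

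The p110-beta gene PIK3CB was 5.74, 5.98 and 6.12 in control tumours and 6.05, 6.21 and 6.02 in SHP2 shRNA tumours. It lay under the control percentile only in control tumour 1, its lowest value, and the groups overlapped. The difference was 0.14 (95% interval -0.23 to 0.51), and 0.04 without control tumour 1. Its transcript lies on chr3:138372860-138553594 (GRCh37, minus strand).

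PIK3R1, which encodes the p85-alpha family of regulatory subunits, was 5.87, 6.21 and 6.26 in control tumours and 5.90, 5.99 and 5.92 in SHP2 shRNA tumours. The SHP2 shRNA tumours lay within 0.09 of each other and inside the range of the controls, of which control tumour 1 was lowest and just under the control percentile. The mean was 6.11 ± 0.21 (SD, n = 3) in control and 5.94 ± 0.05 in SHP2 shRNA tumours, a difference of -0.17 (95% interval -0.54 to 0.19). It was the lowest difference among the measured members, -0.29 without control tumour 1 and -0.10 without control tumour 3.

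**Figure D1:**
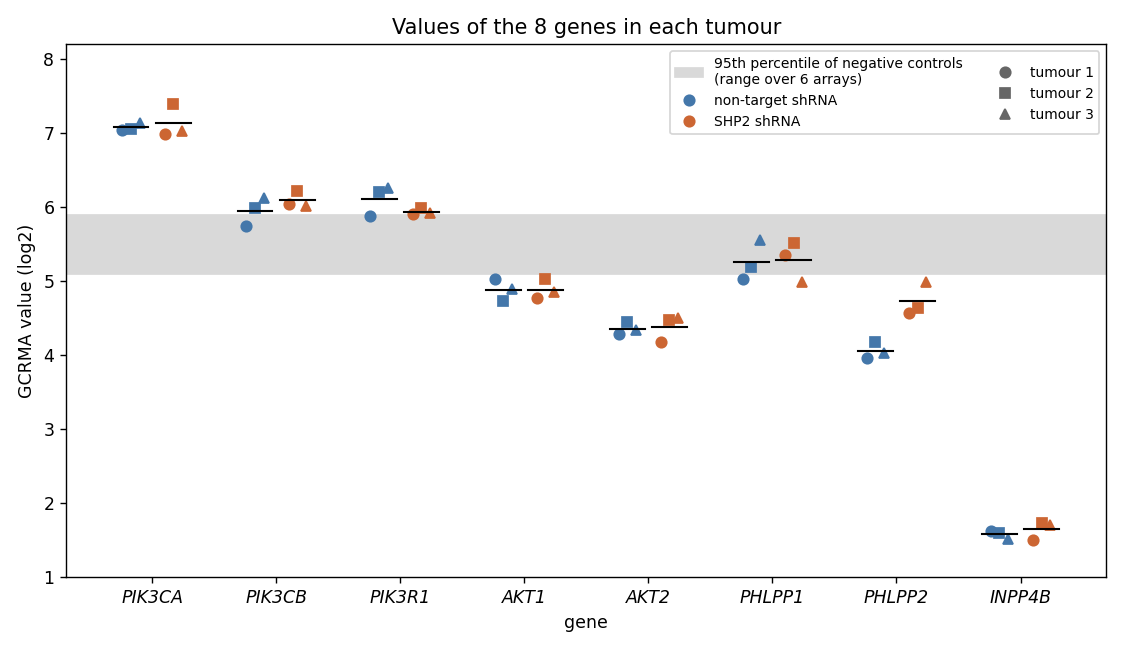
GCRMA values (log2, vertical axis) of the 8 genes in the 3 control tumours (blue) and the 3 SHP2 shRNA tumours (orange), with marker shapes for the tumour number, black lines for group means and a grey band for the range over arrays of the 95th percentile of negative controls (5.09 to 5.90). PHLPP2 is the only one of the 8 whose groups do not overlap, and it lies below the band, as do AKT1, AKT2 and INPP4B. Levels of different genes come from different probes and cannot be ranked.

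AKT1 encodes the broadly expressed AKT isoform. Its values were 5.03, 4.73 and 4.89 in control tumours and 4.77, 5.03 and 4.85 in SHP2 shRNA tumours. The groups overlapped over almost their whole range, and the difference was -0.00040 (SE 0.16, 95% interval -0.36 to 0.36). The transcript lies on chr14:105235686-105260461 (GRCh37, minus strand).

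AKT2, the isoform best known for insulin-stimulated glucose uptake, was 4.28, 4.45 and 4.34 in control tumours and 4.18, 4.47 and 4.50 in SHP2 shRNA tumours, a difference of 0.03 (95% interval -0.33 to 0.39). The lowest and the highest value were both in SHP2 shRNA tumours. Neither AKT1 nor AKT2 exceeded the control percentile in any array. AKT1 lay above 89.2 to 93.9% of the negative control features of its array, and AKT2 above 80.6 to 90.8%.

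PHLPP1 encodes the first of the PHLPP phosphatases. Its values were 5.03, 5.18 and 5.55 in control tumours and 5.36, 5.51 and 4.99 in SHP2 shRNA tumours. It exceeded the control percentile in 2 arrays, control tumour 3 and SHP2 shRNA tumour 2, and the groups overlapped widely. The difference was 0.03 (95% interval -0.42 to 0.48). Its sign depended on single arrays, at -0.08 without control tumour 1 and 0.18 without control tumour 3.

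PHLPP2, its paralog, was 3.96, 4.17 and 4.03 in control tumours and 4.57, 4.63 and 4.99 in SHP2 shRNA tumours. All 3 SHP2 shRNA tumours lay above all 3 controls, which is the pattern it was chosen for, and 3.86% of all genes tested were likewise higher without overlap. The mean was 4.05 ± 0.11 (SD, n = 3) in control and 4.73 ± 0.23 in SHP2 shRNA tumours, a difference of 0.68, or 1.60-fold. PHLPP2 was below the control percentile in all 6 arrays. It lay above 76.3, 85.1 and 84.6% of negative control features in control tumours and above 89.3, 91.4 and 94.4% in SHP2 shRNA tumours. The choice of PHLPP2 fixed the direction of this difference, and its size was 0.55 without SHP2 shRNA tumour 3 and 0.63 with arrays centred on their median. It passed the low-value filter, a log2 value above 4 in at least 3 arrays, in all 3 SHP2 shRNA tumours and 2 controls.

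SHP2 shRNA tumour 3 had the highest PHLPP2 value and the lowest PHLPP1 value of the 6, both under the control percentile of that array. PTPN11 was 6.92, 6.34 and 6.88 in SHP2 shRNA tumours 1 to 3, and whether PHLPP2 varies with the depth of the knockdown was not tested. Of 5 leukocyte, 4 endothelial, 5 fibroblast, 4 adipocyte and 3 keratinocyte markers in the table, 2 were higher in all SHP2 shRNA tumours. Both were far below the control percentile and above log2 4 in 0 arrays, so neither was tested. Among all genes tested, which do not include these 2, 3.86% were higher without overlap. PTPRC was 0.98, 1.01 and 1.07 in control tumours and 1.35, 1.24 and 1.21 in SHP2 shRNA tumours, and the endothelial receptor gene KDR was 2.78, 2.77 and 2.69 in control tumours and 2.97, 3.16 and 2.95 in SHP2 shRNA tumours. The summed level of the 4 endothelial markers in the table (log2 of the summed linear values) was 5.38 to 5.52 in control and 5.55 to 5.58 in SHP2 shRNA tumours, and that of the 5 leukocyte markers 7.05 to 7.79 and 7.34 to 8.50. CD68 alone was 6.72 to 7.63 in control and 7.11 to 8.36 in SHP2 shRNA tumours. The other 4 leukocyte markers and all 4 endothelial markers exceeded the control percentile in 0 arrays. The part of these markers in the PHLPP2 difference was not tested.

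**Figure D2:**
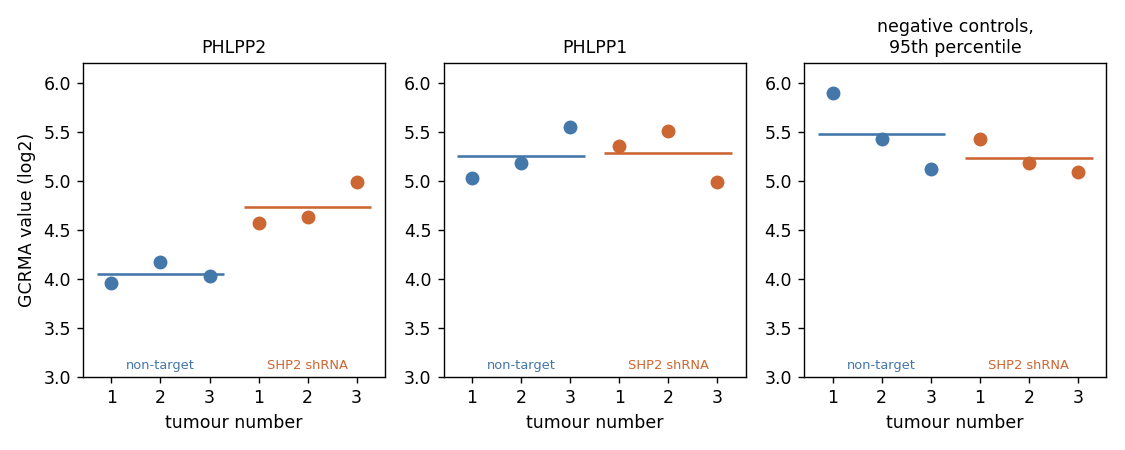
GCRMA values (log2, vertical axis) of PHLPP2 and PHLPP1, and of the control percentile, in each of the 3 control tumours (blue) and 3 SHP2 shRNA tumours (orange), with lines for group means. PHLPP2 is higher in SHP2 shRNA tumours without overlap, PHLPP1 overlaps, and the negative control level is highest in control tumour 1 (5.90) and lowest in SHP2 shRNA tumour 3 (5.09).

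INPP4B, which removes a phosphate from phosphatidylinositol bisphosphate, was 1.62, 1.60 and 1.52 in control tumours and 1.51, 1.73 and 1.70 in SHP2 shRNA tumours. It lay above only 27.5 to 40.4% of negative control features and was the one member left out by the low-value filter, so no difference was tested.

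Of the 6 members tested other than PHLPP2, 0 passed the test (limma, adjusted p = 1.00 for each) against 0.00797% of all genes, 0 had an unadjusted p under 0.05, and the groups overlapped for all 6. Array quality weights and the other variance models also called 0. Their median difference was 0.03, with 4 positive and 2 negative, beside a median of 0.05 and 62.0% positive over all genes tested. That median over all genes changed sign, to -0.01 with 46.3% positive without control tumour 1 and to -0.03 with 42.2% positive with the control percentile as a covariate. The 95% intervals of the 6 reach at most 0.51 upward (PIK3CB) and 0.54 downward (PIK3R1), the fold limits being 1.42 and 0.688.

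Within-array differences between subunits or isoforms were compared as well, with an exact two-sided permutation test over 20 assignments, whose smallest possible p is 0.1. AKT2 minus AKT1 differed by 0.03 between the groups (exact p = 1.00), PIK3CB minus PIK3CA by 0.08 (exact p = 0.50) and PIK3R1 minus PIK3CA by -0.23 (exact p = 0.30). After adjustment over these 3 tests the exact p-values were 1.00, 0.75 and 0.75. PIK3R1 minus PIK3CA was -1.17, -0.85 and -0.88 in control tumours and -1.08, -1.40 and -1.11 in SHP2 shRNA tumours, overlapping through control tumour 1. The size of such a difference rests on the probes of each gene, so only its difference between groups is read.

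**Figure D3:**
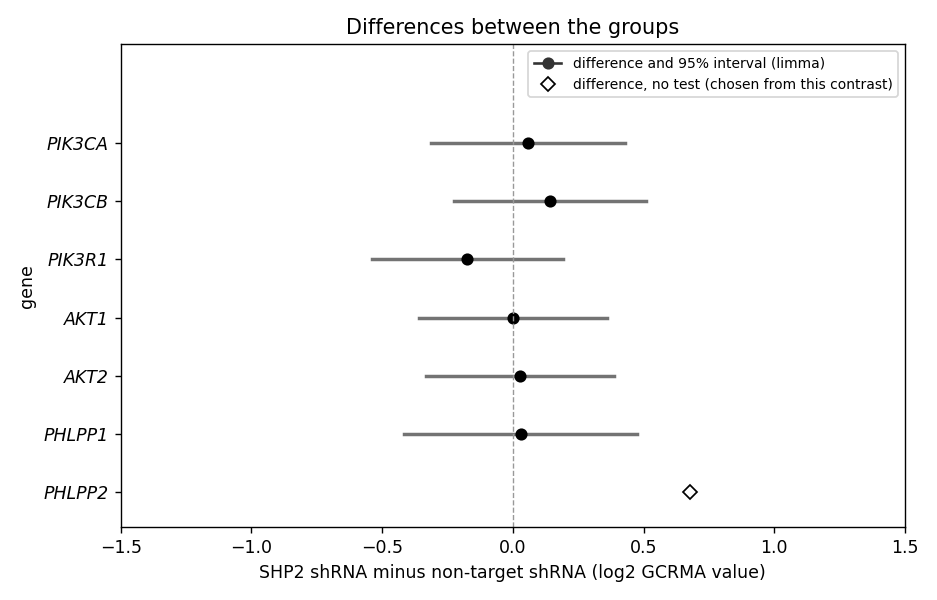
Difference between SHP2 shRNA and control tumours (log2 GCRMA value, horizontal axis) for 7 of the 8 genes; filled points are differences with 95% intervals from the limma fit, and the open diamond is PHLPP2, which was chosen from this contrast and has no interval. The intervals of the 6 tested members all include 0, and PHLPP2 stands at 0.68.

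The other genes of the pathway were taken from 7 role lists with 65 genes, of which 53 were measured. None rose or fell past the threshold (limma, 0 of 53), 1 had an unadjusted p under 0.05 (SLC9A3R1, beside 2.54% of all genes tested), and other variance models called 0. Positive differences numbered 39 and negative ones 14, with a median of 0.09 beside 0.05 and 62.0% positive over all genes tested. That pathway median moved with control tumour 1, being 0.0067 with 28 of 53 positive without it, beside 46.3% of all genes. Control tumour 1 was the lowest of the controls for 69.8% of the pathway genes and 61.5% of all genes. With arrays centred on their median, 31 of 50 differences were positive, and 51.4% of all genes. With the control percentile as a covariate, 18 of 53 were positive, and 42.2% of all genes. Groups did not overlap for 2 pathway genes that were higher (3.77%, against 3.86% of all genes) and 2 that were lower (3.77%, against 2.81%).

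Scaffolds and stability factors of PHLPP gave 6 positive and 2 negative differences among 8, with 0 past the threshold and a median of 0.20. SLC9A3R1, the scaffold NHERF1 that can hold PHLPP at the membrane, was 5.25, 5.83 and 5.79 in control tumours and 5.85, 6.26 and 6.27 in SHP2 shRNA tumours. Its groups were apart by only 0.016, between control tumour 2 and SHP2 shRNA tumour 1. The difference was 0.50 (SE 0.21; limma, adjusted p = 1.00, unadjusted 0.035), 0.32 without control tumour 1. The deubiquitinases USP12 and USP1, reported to stabilise PHLPP1, differed by 0.28 (SE 0.21) and 0.22 (SE 0.18), and by 0.05 and 0.07 without control tumour 1. For 7 of these 8 genes control tumour 1 was the lowest control.

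PDK1 and the mTORC2 subunits, the kinases that phosphorylate AKT, gave 4 positive and 3 negative differences among 7 measured, with 0 past the threshold and a median of 0.01. PDPK1, the gene of PDK1, was 4.94, 4.94 and 5.11 in control tumours and 4.10, 4.46 and 5.12 in SHP2 shRNA tumours, so SHP2 shRNA tumours 1 and 2 lay below all controls and tumour 3 above them. Its difference was -0.44 (SE 0.24), between -0.72 without SHP2 shRNA tumour 3 and -0.21 without SHP2 shRNA tumour 1. PRR5L, which binds mTORC2, differed by -0.31 (SE 0.17). Its groups did not overlap but were apart by only 0.015, and it lay below the control percentile in all arrays. The kinase MTOR differed by 0.17 (SE 0.21). Without control tumour 1, PRR5L differed by -0.19 and MTOR by 0.03.

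The other PI3K subunits gave 5 positive and 2 negative differences among 7 measured, none past the threshold and all between -0.11 and 0.18. PIK3R3, a regulatory subunit, differed by 0.18 (SE 0.16), PIK3R5, a regulatory subunit of p110-gamma, by 0.12 (SE 0.17) and the p110-delta gene PIK3CD by -0.11 (SE 0.19). These lay below the control percentile in all 6 arrays. PIK3R5 differed by 0.0025 without SHP2 shRNA tumour 1, and PIK3R3 by 0.09 without SHP2 shRNA tumour 2. Of 4 other measured phosphoinositide phosphatases, 3 differences were positive and none passed, and INPP4A, INPP5E and INPPL1 differed by 0.16 (SE 0.19), 0.12 (SE 0.20) and 0.08 (SE 0.19). INPP4A differed by 0.08 without SHP2 shRNA tumour 3, and INPP5E and INPPL1 by -0.08 and -0.01 without control tumour 1.

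The direct AKT regulators gave 4 positive and 3 negative differences among 7 measured, none past the threshold. PPP2R1B, a scaffold subunit of protein phosphatase 2A, differed by 0.32 (SE 0.20), and the AKT coactivator gene MTCP1 by -0.17 (SE 0.18), the latter below the control percentile throughout. PPP2R1B differed by 0.16 without control tumour 1 and MTCP1 by -0.03 without SHP2 shRNA tumour 1. PPP2R1A, the other scaffold subunit of that phosphatase, differed by 0.08 (SE 0.19). Of 3 measured PHLPP substrates other than AKT, none passed, and the protein kinase C gene PRKCA, the MST1 kinase gene STK4 and the S6 kinase gene RPS6KB1 differed by 0.09 (SE 0.19), 0.02 (SE 0.15) and 0.14 (SE 0.17).

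AKT substrates and mTORC1 components gave 14 positive and 3 negative differences among 17, none past the threshold, with a median of 0.10. TBC1D4, the RAB GTPase-activating protein through which AKT releases glucose transporters, differed by 0.36 (SE 0.19) and RPTOR, the mTORC1 scaffold, by 0.27 (SE 0.19). These became 0.19 for TBC1D4 without control tumour 1 and 0.11 for RPTOR without control tumour 2. SGK3, a kinase related to AKT, was 4.85, 4.78 and 4.86 in control tumours and 4.36, 4.71 and 4.71 in SHP2 shRNA tumours, lower without overlap (difference -0.24, SE 0.16) and -0.12 without SHP2 shRNA tumour 1. AKT1S1, the mTORC1 inhibitor PRAS40, is named after its values were seen because it completes the 4 genes without overlap. It differed by 0.12 (SE 0.15), its groups were apart by 0.042, and it exceeded the control percentile in 1 array. TBC1D4 and SGK3 were below the control percentile in all arrays.

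**Figure D4:**
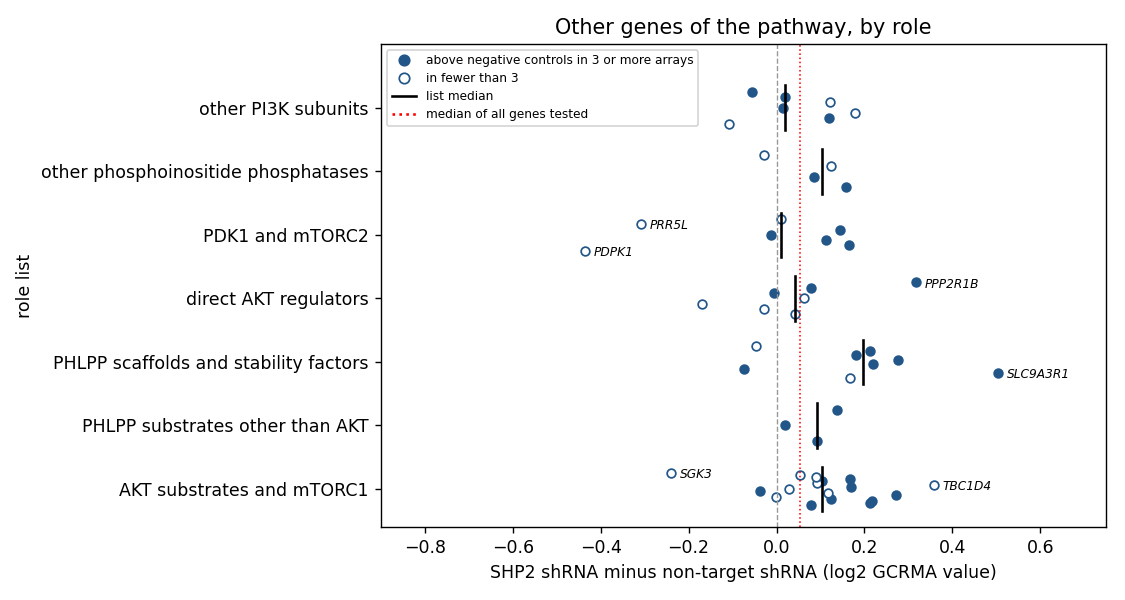
Difference between SHP2 shRNA and control tumours (log2 GCRMA value, horizontal axis) for each of the 53 measured pathway genes, by role list; filled points exceeded the negative control percentile in at least 3 arrays, open points in fewer, black bars are list medians and the dotted line is the median of all genes tested (0.05). PDPK1 (-0.44) lies farthest to the left and SLC9A3R1 (0.50) farthest to the right, and PDPK1 is an open point.

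The genes whose pattern was most like that of PHLPP2 were sought among 12540 genes by the root mean square distance between centred log2 values over the 6 arrays. They were SAMD9L, an interferon-induced antiviral factor (distance 0.108), STC1, the secreted glycoprotein stanniocalcin 1 (0.109), KIAA1467, now named FAM234B (0.114), CITED1, a transcriptional coactivator (0.119), and ACPP, prostatic acid phosphatase (0.120). All 5 were higher in SHP2 shRNA tumours without overlap, which the measure favours, with differences between 0.55 and 0.78. KIAA1467 was 3.63 to 3.67 in control tumours and 4.02 to 4.78 in SHP2 shRNA tumours, so it passed the low-value filter only through the group where it was higher, and it lay below the control percentile in all 6 arrays. Among the members, the distance to PHLPP2 ran from 0.33 (PIK3CB) to 0.46 (PIK3R1 and PHLPP1).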

How the data were processed

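Biotin-labelled RNA from 6 tumours was hybridised to Affymetrix arrays, per the labels' protocols. The authors made the deposited log2 values with GCRMA, per the submitters' processing notes. No base is stated, and log2 was inferred from their range of 0.05 to 13.3. GCRMA models background from probe sequence, normalizes the arrays and combines the probes of a feature, and at low levels the background step sets much of the value. Array design and software version: not given in the sources used here. Some feature descriptions quote GRCh37. The 2 deposited tables hold the same values (largest difference 0). Pairwise correlations between arrays were 0.960 to 0.983, and the lowest, 0.960 to 0.971, were all pairs with control tumour 1. That array also had the lowest median of positive control features, 6.15 against 6.33 to 6.63 in the others.

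Features with 1 symbol were used. The feature with the highest mean stood for a gene, and genes with at least 3 of 6 arrays above a log2 value of 4 were kept (12541). The 2 groups were fitted over all 6 arrays by limma 3.58.1 (R 4.3.3; lmFit, eBayes, no covariate), two-sided, with Benjamini-Hochberg adjustment over all genes kept at 0.05; intervals are 95% intervals of that fit. The fit was tested on simulated data with independent noise. The simulation held no shift shared by a whole array, so it cannot show how such a shift acts on the calls. Of 114 listed genes, 112 are in the table, and all 114 are current symbols or synonyms in RefSeq (GRCh38.p14), the source of the promoter sequences.

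The members, role lists and markers were chosen with earlier results of these data known. The rule for names took all members, PTPN11, the 3 genes of smallest p per role list and the 5 genes nearest to PHLPP2. Some genes of the role and marker lists are not reported here, and all list counts leave them out. In 16 repeats of the fit, filters, features, normalizations or variance models were replaced, sample numbers were used as a block, or 1 array was left out. A covariate and a filter from the negative controls, and a fit without both arrays numbered 1, were added after the data were seen.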

Additional observations from a re-analysis of the deposited data

How the results depend on the processing

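Over 19 alternatives the number of members past the threshold stayed at 0, as did that of pathway genes. The median pathway difference lay between 0.0067 and 0.17 with 1 array left out and was -0.05 with the negative control percentile as a covariate. Of 518 gene differences recomputed, 469 kept their direction and, where tested, their side of the threshold, 41 in 12 genes reversed, and 8 for PTPN11 no longer passed. The 469 include 17 for PHLPP2, whose direction its choice fixed. Others of the 469 were fixed in direction, because filters, the replicate block and variance models without array quality weights leave a gene's difference unchanged. The same holds for the choice of feature where a gene has 1 feature, as each member does. The cause of the reversals was not tested. With arrays centred on their median, PHLPP1 was -0.0170, AKT2 -0.0189 and STK4 -0.0271, and with quantile normalization STK4 was -0.0169. With array quality weights, PHLPP1 was -0.0414 and AKT1 0.0418. With the covariate, PHLPP1 was -0.0721, AKT1 0.0271, AKT2 -0.0317, INPP5E -0.0748, INPPL1 -0.0535, PPP2R1A -0.0964, STK4 -0.0635, MTOR -0.0510, RPS6KB1 -0.0117 and PRKCA -0.0745. Without both arrays numbered 1, PHLPP1 was -0.118, AKT1 0.128, INPP5E -0.0213, STK4 -0.0139, AKT2 minus AKT1 -0.0340 and PIK3CB minus PIK3CA -0.0557. With single arrays left out, the ranges were -0.0824 to 0.178 (PHLPP1), -0.0750 to 0.0710 (AKT1), -0.0300 to 0.130 (AKT2), -0.0715 to 0.135 (PIK3CA), -0.0772 to 0.246 (INPP5E), -0.244 to 0.0030 (PIK3CD), -0.0313 to 0.235 (PRKCA), -0.0655 to 0.222 (INPPL1), -0.0500 to 0.223 (PPP2R1A), -0.0410 to 0.0917 (STK4), -0.0792 to 0.150 (AKT2 minus AKT1) and -0.0019 to 0.154 (PIK3CB minus PIK3CA). With the sample number as a replicate block, 0 members and 0 pathway genes passed, and 5 genes did among all genes, against 1 without it. Same-numbered samples deviated together unevenly (r of 0.42, -0.03 and 0.17). Differently numbered ones had r from -0.43 to 0.33, and the numbers were not taken as pairs. Where a gene lies below the negative control percentile, as PHLPP2, AKT1, AKT2 and INPP4B do, signal over background limits what its difference can show.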
